A study of Mus musculus with 15 samples.

Results

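Arc and 9 other genes that neurons switch on when they fire (Npas4, Homer1, Nptx2, Btg2, Ier2, Sik1, Gadd45b, Ptgs2 and Plk2) were followed through the striatum of 15 mice. These 10 genes, of 54232 in the deposited count table, were chosen by symbol from the genes known to respond to neuronal activity, through the Ensembl identifier with its version dropped. They were proposed after results of E1 against WT in these data were known. Their values in E1 against WT are therefore a description, and p-values there do not test them. The same holds for KI-96 against E1, which uses the same E1 libraries. KI-96 against WT shares its WT libraries with E1 against WT, so its tests are not fully independent of the choice. All 10 genes were in the table and passed the filter on low counts.

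The mice were 6 months old, with 7 WT (wild type), 4 E1 and 4 KI-96 animals. By its title the study asks about harm from RAN translation in Huntington's disease knock-in mice. RAN translation makes protein from an expanded repeat with no start codon. The labels give E1 and KI-96 by name alone and state neither their alleles nor any treatment. Mouse numbers differ between all libraries, and each replicate is therefore another animal.

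When a neuron is strongly stimulated, calcium entry activates kinases that act on transcription factors already bound to DNA, and a set of genes is transcribed within minutes. Some of these genes encode transcription factors. Others, called effector genes, act directly at the synapse or on signalling: they anchor or remove receptors, modify the cytoskeleton, make lipid messengers or switch the response off again. In the striatum they respond to input from the cortex and to dopamine, and most of their RNAs are short-lived.

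The activity-regulated factor CREB binds the 8-base cAMP response element TGACGTCA and its shorter core TGACG. The DNA just before the gene start in RefSeq was searched for these and other elements. Any link between the elements and variation across mice was not tested. RefSeq promoters of build GRCm38.p6 matched 6 of the 10 genes, namely Npas4, Homer1, Btg2, Gadd45b, Ptgs2 and Plk2. Homer1 has 2 promoter entries, so 7 promoters were read for the 6 genes. The genes without an entry were Arc, Nptx2, Ier2 and Sik1. Only promoters that held TGACG on either strand are shown, which leaves out Gadd45b, Ptgs2 and an entry of Homer1. The 250 bases before the start are written 5′ to 3′ on the gene's own strand, with capitals marking each TGACG or its reverse complement CGTCA. Of Npas4 a stretch of 30 bases is shown, because the annotation places its window inside an exon. The same annotation starts Homer1 at chr13:93299635, so both Homer1 windows lie inside that gene, outside its exons.
Btg2, chr1:134079156-134079405, minus strand: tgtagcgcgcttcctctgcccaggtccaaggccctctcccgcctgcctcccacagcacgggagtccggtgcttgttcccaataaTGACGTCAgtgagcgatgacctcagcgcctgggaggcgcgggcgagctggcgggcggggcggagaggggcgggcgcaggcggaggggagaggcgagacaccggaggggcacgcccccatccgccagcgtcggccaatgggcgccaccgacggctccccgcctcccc
Plk2, chr13:110394794-110395043, plus strand: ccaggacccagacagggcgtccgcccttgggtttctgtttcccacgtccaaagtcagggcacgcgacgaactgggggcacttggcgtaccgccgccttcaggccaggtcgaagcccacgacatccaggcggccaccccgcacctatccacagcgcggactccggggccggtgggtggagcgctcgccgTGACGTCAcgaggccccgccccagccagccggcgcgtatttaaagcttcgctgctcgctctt
Homer1, chr13:93303507-93303756, plus strand: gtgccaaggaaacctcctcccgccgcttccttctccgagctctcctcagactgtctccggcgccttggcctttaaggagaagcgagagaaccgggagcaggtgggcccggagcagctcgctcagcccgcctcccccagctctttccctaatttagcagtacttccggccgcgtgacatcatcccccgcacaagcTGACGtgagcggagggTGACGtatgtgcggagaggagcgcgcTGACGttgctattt
Npas4, chr19:4990121-4990150, minus strand: CGTCAcgggaTGACGtcggaagtctgggag

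On either strand the full element TGACGTCA was found in 2 of the 7 promoters, those of Btg2 (bases -166 to -159 from the start) and Plk2 (bases -62 to -55). Of all 32851 RefSeq promoters of the same length, 1.55% held it. The core TGACG, which lies inside the full element, was found in 4 of the 7, against 17.8% of all promoters. The Homer1 promoter shown had 3 copies beginning at bases -56, -40 and -14, the other Homer1 promoter (chr13:93307784-93308033) had 0 copies, and Npas4 had copies beginning at bases -179 and -169. The AP-1 element TGAGTCA (4.46% of all promoters), the EGR element GCGTGGGCG (0.536%), the CArG box (1.47%) and the MEF2 element (0.508%) were each in 0 of the 7. TATAAA was in 1 of the 7, that of Gadd45b (12.4% of all promoters). In the 100 bases before the start the core was in 2 of the 7, against 10.5% of all promoters. A match describes letters in a window and does not show a bound site.

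Total counts ran from 17281603 to 26388542 in WT, 18199927 to 19533231 in E1 and 14678565 to 23373551 in KI-96. The striatal markers Drd1, Drd2 and Ppp1r1b were present in every library, Drd1 between 162 and 336 CPM (counts per 1000000 of the normalized library size, the unit of the gene levels given here). In bulk tissue, fewer cells of a type and less RNA per cell cannot be told apart. Slc17a7, which loads glutamate into synaptic vesicles in the cortex, was at 816 CPM in WT replicate 3, with 914 and 597 CPM in replicates 2 and 3 of E1. The other 12 libraries had 5.97 to 91.0 CPM. Of 14 cortical markers 12 were positive in E1 against WT, and their summed level was 813 to 3598 CPM in WT, 1051 to 3898 in E1 and 870 to 1804 in KI-96. Reads of Y-linked genes were at 155 to 218 CPM in WT replicates 2 to 7 and at 0 to 0.127 CPM in WT replicate 1 and in every E1 and KI-96 library. In comparisons with WT, genotype and sex therefore cannot be told apart except through WT replicate 1. KI-96 replicate 3 lay apart from the rest on the first principal component, at -73.0 against -23.1 to 34.7.

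Blood markers summed to 79.2 to 216 CPM in WT, 61.1 to 513 in E1 and 87.2 to 142 in KI-96, and all 5 were positive in E1 against WT. Of the 9 myelin markers 0 were positive in E1 against WT, with sums of 10767 to 15476 CPM in WT, 6842 to 16454 in E1 and 8910 to 14387 in KI-96. Sums of 14 striatal projection neuron markers were 8391 to 12879 CPM in WT, 9151 to 13618 in E1 and 7973 to 12513 in KI-96. Those of 9 astrocyte markers ran from 3913 to 4984 CPM over all libraries, of 9 microglia markers from 316 to 530, of 9 endothelial and pericyte markers from 154 to 291 and of 7 choroid plexus markers from 27.7 to 415. For these lists, unlike the cortical markers, the part in the results on the 10 genes was not tested.

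Per kilobase of exon, the mean level in WT was highest for Plk2 (52.9 CPM per kb) and Arc (47.3), followed by Homer1 (22.8), Nptx2 (13.2), Npas4 (7.02), Gadd45b (6.97), Sik1 (4.57), Btg2 (3.55), Ier2 (1.71) and Ptgs2 (0.319). Plk2 and Arc, Sik1 and Btg2, and Npas4 with each of Gadd45b, Sik1 and Btg2 differed by less than the SD between WT mice. The SD was that of the more variable gene of the pair, per kilobase of exon. Before division by exon length it was 48.6 CPM for Arc around a mean of 145 CPM, 14.5 for Npas4 around 29.0 and 3.32 for Btg2 around 9.73.

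**Figure D1:**
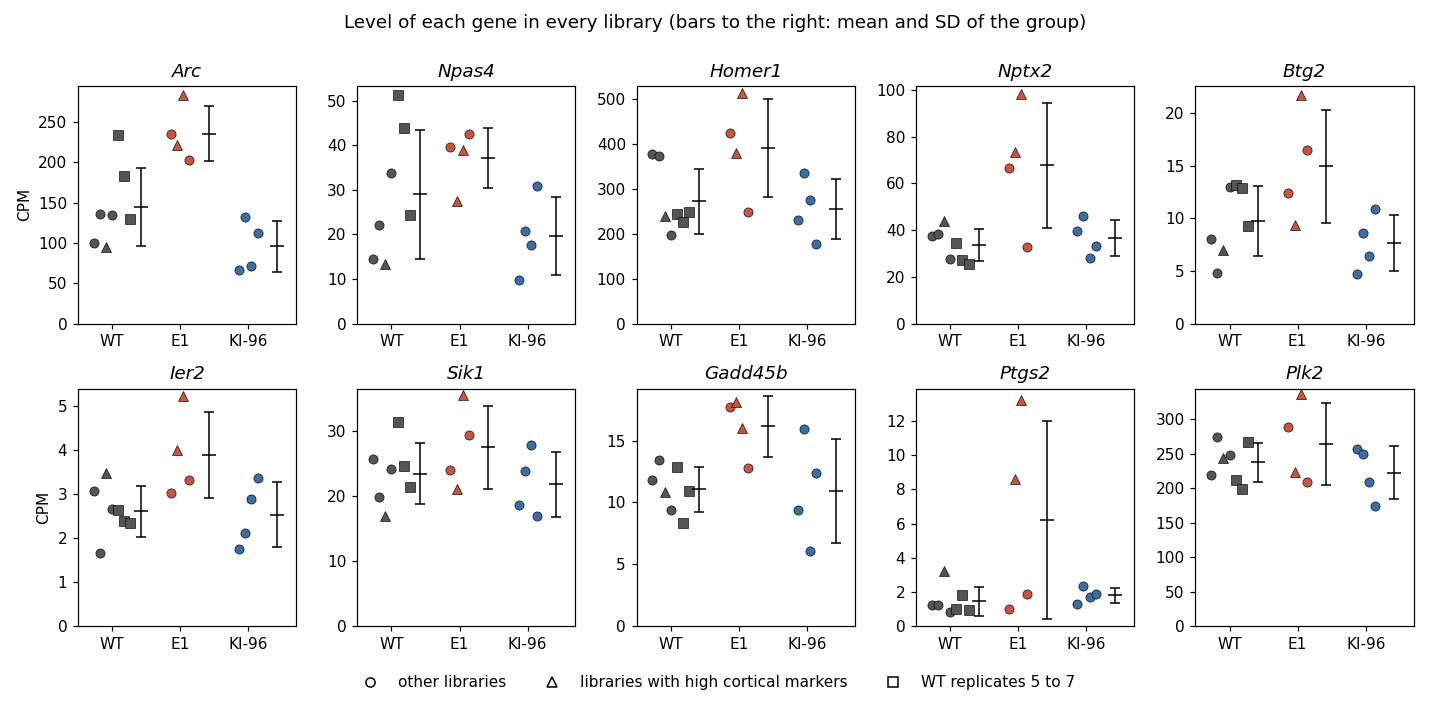
Level of each of the 10 genes in CPM, 1 point per library, for 7 WT, 4 E1 and 4 KI-96 mice, with the group mean and SD. Arc lies at 203 to 284 CPM in E1 and at 66.6 to 132 CPM in KI-96, and Ptgs2 is high in E1 replicates 2 and 3.

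Arc (chr15:74669083-74672570, minus strand) encodes a synaptic protein that removes AMPA receptors from the membrane and forms capsid-like particles. It ran in WT from 95.2 CPM through a median of 135 to 233 CPM. In E1 replicates 1 to 4 it stood at 235, 222, 284 and 203 CPM, and in KI-96 at 66.6, 132, 71.0 and 113 CPM. All 4 E1 mice lay above 6 of the 7 WT mice, and E1 replicates 1 and 3 above all 7. KI-96 replicates 1 and 3 were below every WT mouse and the other 2 within WT, and E1 and KI-96 did not overlap. Its log2 fold change was 0.70 (SE 0.23) in E1 against WT, -0.60 (SE 0.24) in KI-96 against WT and -1.30 (SE 0.27) in KI-96 against E1.

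WT replicates 5 to 7, the WT libraries with the highest total counts, had a mean Arc level of 182 CPM (129 to 233) against 117 (95.2 to 136) in WT replicates 1 to 4, a ratio of 1.56. Against WT replicates 5 to 7 alone the log2 fold change of KI-96 was -0.93, and without them it was -0.29. In E1 the corresponding values were 0.37 and 1.01. With a term for Y-linked reads they were -0.06 for KI-96 and 1.24 for E1, on a comparison that rests on WT replicate 1. The difference of KI-96 from E1 was -1.30 with that term too. All mice of both groups lack Y-linked reads, so the term could not change that difference and is no check on it. Without the 3 libraries rich in cortical markers the difference of KI-96 from E1 was -1.20 (SE 0.31). In every fit without these libraries E1 is represented by replicates 1 and 4 alone.

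Homer1 (chr13:93299635-93405129, plus strand) encodes a scaffold of excitatory synapses that links receptors to intracellular calcium stores. Neuronal activity induces a short form that competes with the long ones, and counts per gene do not separate the forms. In WT it ran from 198 CPM through a median of 245 to 378 CPM. It stood at 424, 379, 513 and 249 CPM in E1 replicates 1 to 4 and at 231, 335, 276 and 178 CPM in KI-96. WT replicates 1 and 2 lay just under E1 replicate 2, and E1 replicate 4 close to the WT median. KI-96 replicate 4 was the lowest library. Homer1 had a log2 fold change of 0.52 (SE 0.21) in E1 against WT and -0.10 (SE 0.22) in KI-96 against WT. In E1 against WT it was 0.27 (SE 0.28) without the 3 cortex-rich libraries. It was 0.47 (SE 0.22) with the cortical marker level as a term in the model and 0.05 with the term for Y-linked reads. In KI-96 against WT it was -0.57 with the latter. The predicted genes Gm47075 and Gm47088 lie within Homer1 on the same strand and share no exon with it.

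Nptx2 (chr5:144545902-144557478, plus strand) encodes a secreted pentraxin that gathers AMPA receptors at excitatory synapses. It spanned 25.5 to 43.7 CPM in WT, with a median of 34.4. E1 replicates 1 to 4 had 66.6, 73.3, 98.1 and 32.9 CPM, and KI-96 had 39.6, 46.0, 27.9 and 33.3 CPM. E1 replicates 1 to 3 were above every WT and KI-96 mouse, and E1 replicate 4 was among them. For Nptx2 the log2 fold change was 1.02 (SE 0.22) in E1 against WT, 0.13 (SE 0.23) in KI-96 against WT and -0.88 (SE 0.26) in KI-96 against E1. Without the 3 cortex-rich libraries it was 0.64 (SE 0.24) in E1 against WT and -0.44 (SE 0.25) in KI-96 against E1. With the cortical term these values were 0.84 (SE 0.20) and -0.63 (SE 0.23). Its close relative Nptx1, itself 1 of the 14 cortical markers, ran from 34.2 to 246 CPM in WT, 40.8 to 307 in E1 and 43.9 to 48.8 in KI-96.

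Plk2 (chr13:110395046-110400844, plus strand) is a kinase that weakens synapses after long stimulation. It ran in WT from 199 CPM through a median of 243 to 275 CPM. The 4 E1 mice had 289, 224, 336 and 209 CPM and the 4 KI-96 mice 257, 249, 208 and 175 CPM. E1 replicates 1 and 3 lay above all WT mice, E1 replicates 2 and 4 within WT, and KI-96 replicate 4 below it. Its log2 fold change was 0.15 (SE 0.14) in E1 against WT, the smallest of the 10 genes, and -0.10 (SE 0.14) in KI-96 against WT. Without E1 replicate 3 the value of E1 against WT was 0.0159.

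Npas4 (chr19:4984355-4990316, minus strand) is a transcription factor induced by calcium entry that adjusts the balance of excitation and inhibition. It ran in WT from 13.5 CPM through a median of 24.4 to 51.2 CPM, a highest value 3.81 times the lowest. In E1 it stood at 39.6, 27.5, 39.0 and 42.5 CPM and in KI-96 at 9.68, 20.7, 17.7 and 30.8 CPM. WT replicates 5 and 6 lay above every E1 mouse, and KI-96 replicate 1 was the lowest of all 15 libraries. Npas4 had a log2 fold change of 0.35 (SE 0.36) in E1 against WT, -0.55 (SE 0.37) in KI-96 against WT and -0.90 (SE 0.42) in KI-96 against E1.

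The values of Npas4 against WT turned on which WT mice were used. WT replicates 5 to 7 had a mean of 39.8 CPM (24.4 to 51.2) and the others 21.0 (13.5 to 33.9), a ratio of 1.90. Against WT replicates 5 to 7 alone the log2 fold change was -0.10 in E1 and -1.01 in KI-96. Without those 3 mice it was 0.82 in E1 and -0.08 in KI-96. With the term for Y-linked reads it was 1.36 in E1 and 0.46 in KI-96.

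Btg2 (chr1:134075170-134079120, minus strand) is an antiproliferative protein that recruits the CCR4-NOT deadenylase to messenger RNA. Its level in WT went from 4.84 CPM through a median of 9.28 to 13.2 CPM. E1 replicates 1 to 4 stood at 12.3, 9.32, 21.7 and 16.4 CPM, and KI-96 at 4.73, 8.62, 6.39 and 10.9 CPM. E1 replicates 3 and 4 were above all other mice, and the KI-96 mice lay within WT apart from replicate 1, just under its lowest value. Its log2 fold change was 0.61 (SE 0.28) in E1 against WT, -0.34 (SE 0.29) in KI-96 against WT and -0.96 (SE 0.33) in KI-96 against E1. As for Arc and Npas4, the mean of WT replicates 5 to 7 was above that of the other WT mice, 11.8 against 8.21 CPM. Without them the value was 0.86 in E1 and -0.10 in KI-96, and against them alone it was 0.35 in E1 and -0.61 in KI-96. Without E1 replicate 3 the value of E1 against WT was 0.38.

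Ier2 (chr8:84661331-84662852, minus strand) is a short nuclear protein made early after stimulation. It ran in WT from 1.67 CPM through a median of 2.63 to 3.47 CPM. It stood at 3.02, 3.99, 5.21 and 3.31 CPM in E1 and at 1.75, 2.11, 2.89 and 3.37 CPM in KI-96. E1 replicates 2 and 3, the cortex-rich ones, were above all other mice, and the remaining E1 mice lay inside the WT range. Ier2 had a log2 fold change of 0.58 (SE 0.22) in E1 against WT and -0.02 (SE 0.23) in KI-96 against WT. In E1 against WT it was 0.36 (SE 0.28) without the 3 cortex-rich libraries and 0.44 (SE 0.22) with the cortical term.

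Gadd45b (chr10:80930073-80932204, plus strand) is a stress-response protein linked to DNA demethylation in neurons. In WT it ranged from 8.34 to 13.5 CPM with a median of 10.9. The E1 mice had 17.7, 18.1, 16.0 and 12.8 CPM and the KI-96 mice 9.39, 15.9, 6.11 and 12.4 CPM. E1 replicates 1 to 3 lay above every WT mouse, and KI-96 spread on both sides of WT. For Gadd45b the log2 fold change was 0.54 (SE 0.20) in E1 against WT, -0.02 (SE 0.20) in KI-96 against WT and -0.56 (SE 0.23) in KI-96 against E1. Without the 3 cortex-rich libraries the first of these was 0.45 (SE 0.27), and with the cortical term it was 0.49 (SE 0.20).

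Sik1 (chr17:31844250-31855804, minus strand) is a salt-inducible kinase, induced by CREB, that retains CREB coactivators and class IIa histone deacetylases in the cytoplasm. It ran in WT from 17.0 CPM through a median of 24.2 to 31.5 CPM. E1 replicates 1 to 4 had 24.0, 21.1, 35.6 and 29.3 CPM, and KI-96 had 18.6, 23.9, 27.9 and 16.9 CPM. E1 replicate 3 was the highest library, and the other E1 mice and 3 of the 4 KI-96 mice lay within WT. Sik1 had a log2 fold change of 0.23 (SE 0.17) in E1 against WT and -0.11 (SE 0.17) in KI-96 against WT. Without E1 replicate 3 the former was 0.0766.

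Ptgs2 (chr1:150100031-150108227, plus strand) encodes cyclooxygenase 2, which makes the precursor of the prostaglandins. It was the lowest of the 10 genes, from 0.834 CPM through a median of 1.22 to 3.23 CPM in WT. It stood at 1.02, 8.59, 13.2 and 1.89 CPM in E1 and at 1.31, 2.37, 1.69 and 1.87 CPM in KI-96. E1 replicates 2 and 3 were above all other libraries, WT replicate 3 came next, and these are the 3 libraries with the highest Slc17a7. E1 replicates 1 and 4 lay among the WT and KI-96 mice.

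The log2 fold change of Ptgs2 was 2.09 (SE 0.53) in E1 against WT, the largest of the 10 genes, 0.32 (SE 0.57) in KI-96 against WT and -1.76 (SE 0.62) in KI-96 against E1. Without the 3 cortex-rich libraries it was 0.31 (SE 0.37) in E1 against WT and turned to 0.31 (SE 0.39) in KI-96 against E1. In KI-96 against WT it was 0.62 without them. With the cortical marker level as a term in the model the values were 1.08 in E1 and 0.68 in KI-96 against WT. Arc, at 0.70 in E1 against WT over all libraries, was at 0.51 (SE 0.29) without these libraries and 0.77 (SE 0.25) with the cortical term. Npas4, at 0.35 over all libraries, was at 0.37 (SE 0.43) and 0.59 (SE 0.36).

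**Figure D2:**
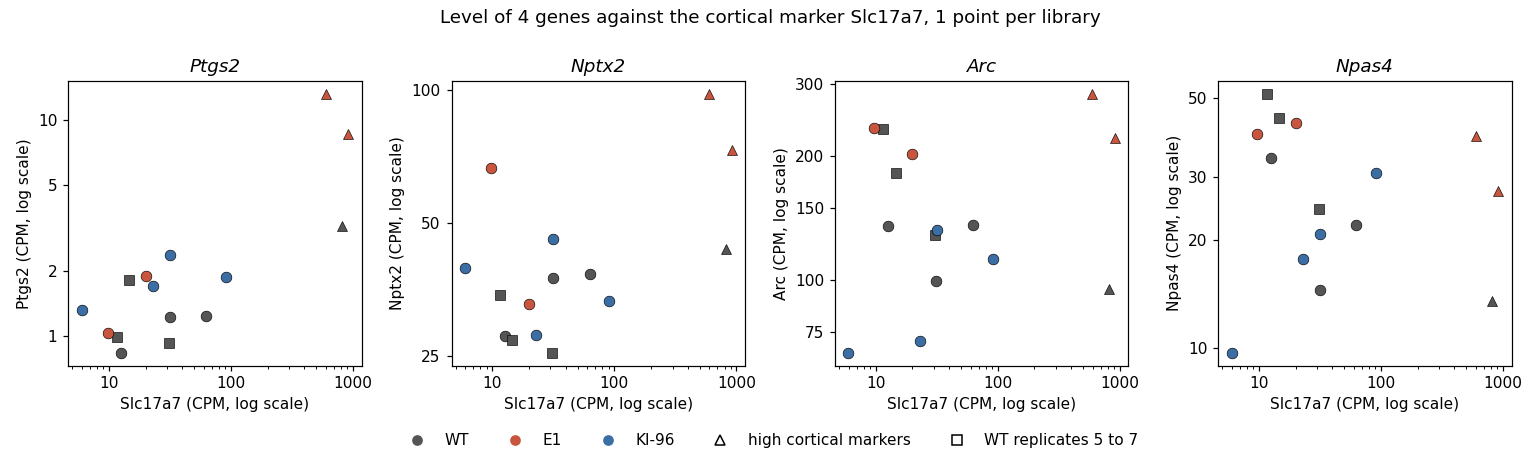
Level of Ptgs2, Nptx2, Arc and Npas4 against that of the cortical marker Slc17a7, both in CPM on log axes, 1 point per library. Triangles are the 3 libraries with 597 to 914 CPM of Slc17a7; Ptgs2 is highest in them, while Arc at 95.2 CPM and Npas4 at 13.5 CPM are the lowest of WT in WT replicate 3.

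In KI-96 against WT, 2 of the 10 genes were positive and 8 negative, with a median of -0.10 against -0.01 over all 18278 genes tested. By edgeR's quasi-likelihood test with Benjamini-Hochberg adjustment over all genes 0 of the 10 passed 0.05, where 0% of all genes did. The smallest adjusted p was 0.405 for Arc (edgeR; log2 fold change -0.60, approximate 95% interval -1.07 to -0.12) and the largest was 0.984 for Gadd45b (-0.02, interval -0.41 to 0.38). Without adjustment 1 of the 10, Arc, had a p under 0.05 against 10.5% of all genes, which is near the background. DESeq2 called 0 of the 10 (0.437% of its genes) and limma-voom called 0 (0.00547%). All 10 genes overlapped between KI-96 and WT, while 0.651% of all genes were lower in every KI-96 library than in every WT library.

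Adjusted p-values of the other genes in KI-96 against WT, from edgeR, were 0.622 for Npas4, 0.898 for Homer1, 0.867 for Nptx2, 0.700 for Btg2, 0.980 for Ier2, 0.857 for Sik1, 0.871 for Ptgs2 and 0.837 for Plk2. The intervals were narrowest for Plk2, -0.37 to 0.18, and Sik1, -0.45 to 0.24. They were widest for Ptgs2, -0.79 to 1.43, and Npas4, -1.29 to 0.18. A p above the threshold does not show that KI-96 and WT were alike: for Arc, Npas4 and Ptgs2 the interval reached past 1 on the log2 scale.

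In E1 against WT all 10 genes were positive, with a median of 0.56 against -0.00 over all genes, of which 49.7% were positive. These values are a description, because the genes were chosen with them known. By edgeR 0 of the 10 passed the adjusted threshold, and 0.00547% of all genes did. Without adjustment 7 of the 10 were under 0.05, against 8.75% of all genes. Because the genes were chosen with this comparison known, such counts and calls do not test them. DESeq2 called Nptx2 and Ptgs2, where it called 0.337% of its genes, and limma-voom called 0 of the 10 against 0.0109%. None of the 10 was higher in every E1 library than in every WT library, a pattern of 0.892% of all genes.

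In KI-96 against E1 all 10 were negative, with a median of -0.75 against -0.00 over all genes. This too is a description. By edgeR 0 of the 10 passed, as did 0% of all genes, and 8 of the 10 had an unadjusted p under 0.05 against 14.3% of all genes. The counts and calls in this comparison do not test the genes either. DESeq2 called Arc alone of the 10 (1.13% of its genes) and limma-voom called 0 (0%). Arc was also the only one of the 10 lower in every KI-96 library than in every E1 library, where 2.5% of all genes were. For the genes not yet given in this comparison the log2 fold change was -0.62 (SE 0.24) for Homer1, -0.60 (SE 0.26) for Ier2, -0.33 (SE 0.20) for Sik1 and -0.25 (SE 0.16) for Plk2. Without the 3 cortex-rich libraries the median of the 10 was -0.42 in KI-96 against E1 and 0.36 in E1 against WT. The comparisons of E1 with WT and of KI-96 with E1 share the 4 E1 libraries, and both comparisons with WT share the 7 WT libraries.

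E1 replicate 4 was the lowest E1 mouse for Arc, Homer1, Nptx2, Gadd45b and Plk2. Without it edgeR called 257 of 18676 genes in E1 against WT, Nptx2 (log2 fold change 1.24) and Ptgs2 (2.39) among them. In KI-96 against E1 it called 190 of 18676 genes without that mouse, Arc (-1.37) and Nptx2 (-1.11) among them. The cortex-rich E1 replicates 2 and 3 then remained beside replicate 1. Without the 3 cortex-rich libraries E1 against WT was 0.64 for Nptx2 and 0.31 for Ptgs2. These calls too are a description, as the genes were chosen with E1 against WT known. Without KI-96 replicate 4 edgeR called 128 of 18640 genes in KI-96 against E1.

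**Figure D3:**
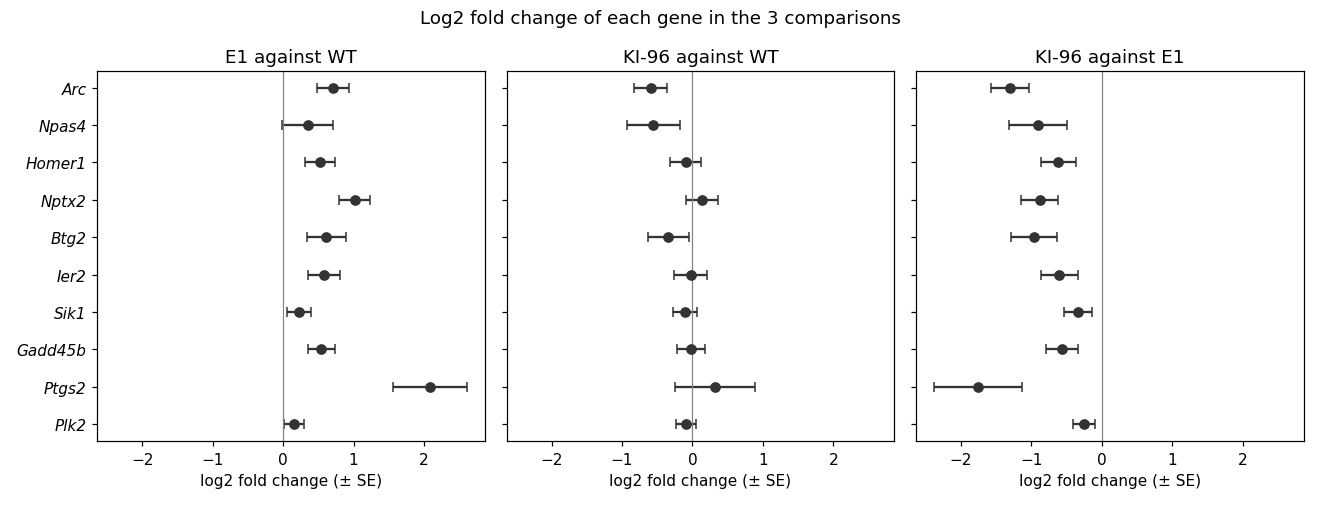
Log2 fold change of each gene with its standard error in E1 against WT, KI-96 against WT and KI-96 against E1, from edgeR's model of all 15 libraries. All 10 points are positive in the first comparison and negative in the last, and in KI-96 against WT they lie between -0.60 and 0.32.

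The genes were chosen by symbol, with earlier results of these data known. Whether these included variation between mice of the same genotype is not given, so the permutation p-values may depend on the choice. After each genotype's mean log2 CPM was subtracted, 28 of the 45 pairs of the 10 genes correlated positively over the 15 libraries, with a median Pearson r of 0.10. For Arc and Npas4 r was 0.84 and Spearman's rho 0.79, with permutation p of 0.0011 and 0.0041, or 0.0461 and 0.0922 after Benjamini-Hochberg adjustment over the 45 pairs. Without the 2 libraries farthest from the median of Arc r was again 0.84. For Npas4 and Btg2 r was 0.77 and rho 0.79, with permutation p of 0.002 and 0.0015, adjusted 0.0461 and 0.0693, and r was 0.72 without the 2 farthest libraries. These 2 pairs passed 0.05 by Pearson's r and not by rho.

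With fewer libraries r stayed positive in both pairs and neither passed the adjusted threshold by r. Without WT replicates 5 to 7, whose mean was high for all 3 genes, r was 0.71 for Arc and Npas4 and 0.70 for Npas4 and Btg2, each at an adjusted permutation p of 0.419 over 12 libraries. Without the 3 cortex-rich libraries r was 0.84 and 0.80, each at an adjusted permutation p of 0.127, and rho of Npas4 and Btg2 was 0.94 at an adjusted permutation p of 0.0171.

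Homer1 and Nptx2 formed another pair with r of 0.68 and rho of 0.57, at adjusted permutation p of 0.180 and 0.260, which did not pass. Npas4 and Homer1 had the lowest r, -0.37, at an adjusted permutation p of 0.507. Nptx2 and Ptgs2 had r of 0.58 over all libraries, at an adjusted permutation p of 0.455 that did not pass, and r of -0.21 without the 3 cortex-rich ones.

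**Figure D4:**
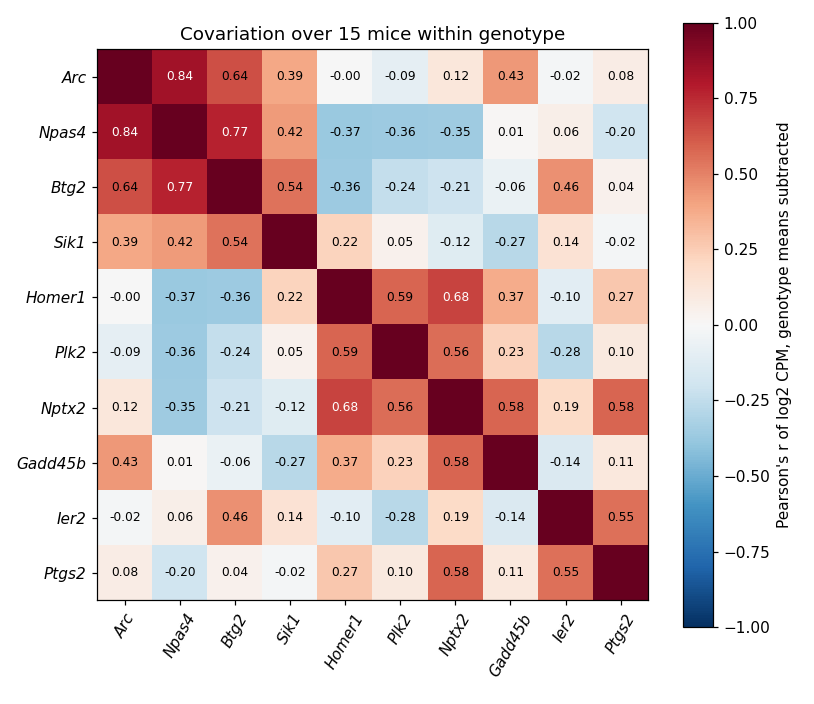
Pearson r between each pair of the 10 genes over the 15 libraries, after subtraction of the mean log2 CPM of each genotype. Arc with Npas4 (0.84) and Npas4 with Btg2 (0.77) are the highest cells, and Npas4 with Homer1 (-0.37) is the lowest.

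Among 13629 other genes with a mean of at least 1 CPM, those most like Arc in log2 CPM over the 15 libraries, genotype differences included, were Ovca2 (Pearson r 0.92), Nr4a1 (0.91), Junb (0.90), Map3k14 (0.90), Tfdp1 (0.89), Dusp1 (0.88), Sesn1 (0.86), Mmaa (0.86), Mknk2 (0.86) and Hmgb2 (0.86). Fos was the gene most like both Npas4 (0.91) and Btg2 (0.88). After Fos came Wdr46 and Ovca2 for Npas4, and Junb and Ovca2 for Btg2.

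The other genes had different nearest profiles. Homer1 was most like Baiap2 (0.92), Enox1 and Npas2, and Nptx2 most like Rab3ip (0.95), Icam5 and Rab15. Gadd45b was most like Nab2 (0.95), Arpc5l and Cinp, Plk2 most like Cdk17 (0.92), Tiam2 and Prkar2b, and Ptgs2 most like St3gal1 (0.93), Rap2a and Rims4. Ier2 was most like Pde4a (0.85), Zfp811 and C2cd4c, and Sik1 most like Cstf3 (0.80), Ubfd1 and Stn1. These are the highest of many correlations over shared libraries and are given without a test.

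Genes around the 10 in their pathways were read from lists, and in each list 0 genes passed edgeR's adjusted threshold in any of the 3 comparisons. Of 18 activity-induced transcription factors, which are induced alongside the effectors, all 18 were positive in E1 against WT (median 0.74), 5 were positive in KI-96 against WT (median -0.19) and 0 in KI-96 against E1 (median -0.91). Egr1, a zinc finger factor, had 270 CPM ± 56.3 (SD, n = 7) in the WT mice, 479 ± 120 (n = 4) in the E1 mice and 300 ± 98.4 (n = 4) in the KI-96 mice. Fosb, a partner of Jun proteins, was at 23.8 CPM in WT, 53.1 in E1 and 27.5 in KI-96. In KI-96 against WT the smallest p-values of the list belonged to Junb (log2 fold change -0.35, SE 0.21) and Nr4a2 (-2.25, SE 1.38). Nr4a2 ran from 1.20 to 39.1 CPM in WT and from 0.974 to 80.9 in E1.

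Of 11 genes of the later response all 11 were positive in E1 against WT (median 0.59) and 6 in KI-96 against WT (median 0.08). With 1 library left out at a time these medians ran from 0.15 to 0.79 and from -0.08 to 0.12. Gpr3 (0.74, SE 0.25) and Rgs2 (0.43, SE 0.16), a receptor and a regulator of G-protein signalling, had the smallest p in E1 against WT. Rheb (-0.20, SE 0.13) and Per1 (-0.13, SE 0.11) had the smallest p in KI-96 against WT. Of 20 upstream activators, factors and kinases present before stimulation, 12 were positive in E1 against WT (median 0.02) and 15 in KI-96 against WT (median 0.12). The serum response factor Srf had 92.9 CPM ± 8.78 (SD, n = 7) in the WT mice and 114 ± 12.9 (n = 4) in the E1 mice (0.30, SE 0.10), and Mef2d differed by 0.12 (SE 0.10). In KI-96 against WT, Mrtfb differed by 0.50 (SE 0.17) and the CREB coactivator Crtc1 by 0.29 (SE 0.10), both at an adjusted p of 0.362 by edgeR.

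Of 15 synaptic partners of Arc and Homer1, 8 were positive in E1 against WT (median 0.03) and 12 in KI-96 against WT (median 0.11). Among them were the endophilin Sh3gl3 (-0.24, SE 0.10) and the scaffold Shank2 (0.24, SE 0.12) in E1, and the AMPA receptor auxiliary subunit Cacng2 (0.43, SE 0.19) in KI-96. Of 6 relatives and receptor partners of Nptx2, 5 were positive in E1 against WT (median 0.08) and 1 in KI-96 against WT (median -0.06). Nptxr (0.93, SE 0.45) and Nptx1 (1.06, SE 0.63) had the smallest p in E1, and the AMPA receptor subunits Gria1 (0.32, SE 0.12) and Gria4 (-0.09, SE 0.09) in KI-96. Of 4 possible dimer partners of Npas4, 2 were positive in each comparison with WT, with medians of 0.02 and -0.05. Arntl (0.35, SE 0.15) and Arntl2 (-0.27, SE 0.20) had the smallest p in E1, and Arntl2 (-0.33, SE 0.20) and Arnt (-0.09, SE 0.08) in KI-96.

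Of 12 tested relatives and partners of Btg2, Ier2 and Gadd45b, 10 were positive in E1 against WT (median 0.18) and 0 in KI-96 against WT (median -0.18). Cnot7, a deadenylase subunit that Btg2 binds, was at 87.4 CPM in WT, 98.2 in E1 and 77.2 in KI-96 (log2 fold change 0.17 and -0.18, SE 0.08 in each). Ier5 differed by 0.49 (SE 0.21) in E1 and Tob1 by -0.20 (SE 0.11) in KI-96. Of 6 relatives and targets of Sik1, 5 were positive in each comparison with WT, with medians of 0.08 and 0.15. Stk11, the kinase that activates Sik1, differed from WT by 0.13 (SE 0.07) in E1 and, in KI-96, by 0.24 (SE 0.07). Hdac4 and Hdac5 are class IIa deacetylases: Hdac4 differed by 0.21 (SE 0.14) in E1 and Hdac5 by 0.28 (SE 0.09) in KI-96.

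Of 8 relatives and targets of Plk2, 5 were positive in E1 (median 0.03) and 4 in KI-96 (median 0.03) against WT. Plk5, a polo-like kinase of the brain, had 28.1 CPM ± 5.69 (SD, n = 7) in the WT mice, 33.4 ± 8.55 (n = 4) in the E1 mice and 15.1 ± 4.65 (n = 4) in the KI-96 mice, a log2 fold change of -0.89 (SE 0.20) in KI-96 against WT with an adjusted p of 0.241 by edgeR. Sipa1l1, a target of Plk2 at synapses, differed by 0.26 (SE 0.13) in KI-96 against WT, and Plk4 and Plk5 differed by -0.28 (SE 0.20) and 0.25 (SE 0.19) in E1 against WT. Of 15 tested genes of the prostaglandin pathway around Ptgs2, 7 were positive in each comparison with WT, with medians of -0.08 and -0.02. The receptor Ptgfr had WT libraries from 0.235 to 4.87 CPM, E1 from 0.0562 to 0.472 and KI-96 from 0.197 to 0.582. Its groups overlapped. The synthase Ptges3 differed by 0.20 (SE 0.08) in E1 and the receptor Ptger3 by 0.59 (SE 0.30) in KI-96 against WT.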

How the data were processed

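RNA of the striatum of 15 mice had been sequenced, 1 library per mouse. The authors deposited whole-number counts per gene, not normalized: library totals differ. STAR, HTSeq, GRCm38 and DESeq2 1.24.0 are listed without roles in the submitters' processing notes. Settings, annotation release and strandedness remain not given in the sources used here, and overlapping or antisense genes are therefore uncertain. Of 54232 identifiers, 54165 matched an annotation of GRCm38 without their version.

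Genes were filtered by edgeR 4.0.16 (minimum count 10; 18278 kept), scaled by the trimmed mean of M-values and fitted with its quasi-likelihood model on all 15 libraries. Group was the only factor, tests were two-sided and the threshold was an adjusted p of 0.05. Log2 CPM used a prior count of 2. DESeq2 1.42.0 and limma 3.58.1 (voom) were alternatives, as were no filter, fits of only the groups compared, a replicate block, covariates and left-out libraries. Correlations between genes used 100000 permutations. Only the edgeR fit was tested on simulated counts, for E1 against WT. Precision is limited by the number of mice and, for Ptgs2, by counts as low as 16.

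The 10 genes, and the lists of pathway and marker genes, were chosen with earlier results of these data known. Named from each list were, where none passed, the 2 genes with the smallest p in each comparison with WT; 1 of these is not reported here. For each of the 10 the 3 most similar genes were named (10 for Arc), with predicted genes left out.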

Additional observations from a re-analysis of the deposited data

Results flagged for a closer look

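Ptgs2 in WT replicate 3 stood at 3.23 CPM. The next WT mouse was at 1.82 CPM and the lowest at 0.834, so the gap to the nearest mouse was 0.590 of the whole WT range and above Dixon's critical value for 7 samples. This was 1 of 30 groups examined (10 genes in 3 genotypes), and chance singles out about 1 in 20 such groups. The same library had 816 CPM of the cortical marker Slc17a7, against 11.6 to 63.0 CPM in the other WT mice.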

How the results depend on the processing

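The count of all genes called by edgeR in E1 against WT was 1; it was 58 with DESeq2, 2 with limma-voom, 25 against WT replicates 5 to 7 alone, and 0 with no filter, with only both groups compared in the fit, with the cortical or the Y-linked covariate, without the 3 cortex-rich libraries and without WT replicates 5 to 7. In KI-96 against E1 it was 0, and 206 with DESeq2, 3 with no filter and 1 with the Y-linked covariate. In KI-96 against WT it was 0, and 72 with DESeq2, 1 with limma-voom, 1 with no filter and 26 against WT replicates 5 to 7 alone. Leaving out 1 library at a time gave 0 to 257, 0 to 190 and 0 to 11 calls in these comparisons. The extremes came without E1 replicate 4 for the comparisons with E1 and without WT replicate 1 for KI-96 against WT. Medians of the 10 genes then ran from 0.39 to 0.64 in E1 against WT, -0.86 to -0.61 in KI-96 against E1 and -0.20 to -0.04 in KI-96 against WT. Without the 3 cortex-rich libraries the median in KI-96 against E1 was -0.42. With a replicate block the calls were 4, 0 and 6, with medians of 0.67, -0.71 and -0.09. Numbers 5 to 7 occur in WT alone, so the block leaves those mice no part in the fold changes. Leaving out WT replicates 5 to 7 gave medians of 0.67 in E1 and -0.09 in KI-96 against WT. Whether replicate numbers pair the mice was not tested. Same-numbered libraries of different genotypes correlated between -0.10 and 0.19 in 12 pairs (median 0.02). Differently numbered ones correlated between -0.36 and 0.54 in 60 pairs (median -0.01). Of 24 comparisons of a library with another genotype, 8 had the highest correlation with the library of the same number. Pairs of genes passing by Pearson's r went from 2 to 0 without the 3 cortex-rich libraries and to 0 without WT replicates 5 to 7. The promoters with TGACG went from 4 to 2 in 100 bases. Signs turned in KI-96 against WT for 7 genes, none of them called; Npas4 went from -0.55 to 0.46 with the Y-linked covariate, and the other 6 had -0.11 to 0.13 in the model of all 15 libraries without it. With the cortical covariate Gadd45b was 0.000731 and Ier2 0.0314, with limma-voom Ier2 was 0.0155, and without the 3 cortex-rich libraries Ier2 was 0.0507. Against WT replicates 5 to 7 alone Gadd45b was 0.0325, Homer1 0.0852 and Ier2 0.0592, and without them Nptx2 was -0.0129 and Sik1 0.00687. With the Y-linked covariate Nptx2 was -0.0374 and Plk2 0.0171. Leaving out 1 library gave Gadd45b -0.25 to 0.18, Homer1 -0.26 to 0.0381, Ier2 -0.20 to 0.11 and Plk2 -0.17 to 0.00164. Outside KI-96 against WT, Ptgs2 turned from -1.76 to 0.31 in KI-96 against E1 without the 3 cortex-rich libraries. Npas4 turned from 0.35 to -0.10 in E1 against WT with WT replicates 5 to 7 as the only WT mice. The cause was not tested. Settings on WT replicates 5 to 7 and those for gene lists were chosen after seeing the data.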
